A study of Sus scrofa with 44 samples.

Results

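The 7 genes described here read N6-methyladenosine (m6A) and were followed through prenatal muscle development in the pig: YTHDF1, YTHDF2, YTHDF3, YTHDC1, YTHDC2, HNRNPA2B1 and ELAVL1. They were chosen by gene symbol, each symbol matched 1 Ensembl pig gene, and the 7 genes are 7 of the 22427 in the deposited expression files. The series holds 44 samples, 36 from the longissimus dorsi, a long muscle of the back, and 8 from PK15, a pig kidney cell line. Each sample is either input RNA or RNA pulled down with an antibody against m6A (MeRIP-seq). Muscle from fetuses of 33, 40, 50, 60, 70 and 95 days post coitus, called E33, E40, E50, E60, E70 and E95, was depleted of rRNA and gave 3 samples of each kind at every stage. The PK15 groups have 2 samples each, from polyA RNA or from rRNA-depleted RNA. The labels name no treatment, allele or strain for any group, and do not say whether the 3 samples of a stage are separate fetuses, so the p-values measure the spread between these samples, which may be technical. Expression values as TPM, which counts transcripts relative to a fixed total and corrects for length, were available for the 18 muscle input libraries, and 1 list of m6A peaks for each of the 6 stages and the 2 PK15 preparations. All 7 skeletal muscle markers looked up were present, and their summed level ran from 3122 to 3736 scaled TPM at E33 and from 13704 to 19529 at E95. ACTA1 (mean 6259) and MYH8 (3811) were the largest parts of the sum at E95. ACTA1, MYH8, CKM, DES and TNNT3 had higher means at E95 than at E33. The mean of MYH3 was lower (2186 at E33 and 1062 at E95), and that of MYOG was 123 and 119.

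m6A is a methyl mark on adenosines of mRNA, placed by a nuclear enzyme complex around METTL3 and METTL14 and read by proteins that bind the methylated base or RNA opened by it. YTHDF1, YTHDF2 and YTHDF3 are cytoplasmic proteins with a YTH domain, the pocket that holds the methylated base, and are best known for recruiting decay enzymes and for effects on translation. YTHDC1 is the nuclear YTH protein, with roles in splicing and export, and YTHDC2 is an RNA helicase with a YTH domain that is known from the entry of germ cells into meiosis. HNRNPA2B1 is an abundant nuclear RNA-binding protein linked to microRNA processing, and ELAVL1 (HuR) binds AU-rich elements and stabilises mRNAs, among them myogenic ones.

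The mRNAs of some of these readers carry m6A peaks themselves, and stretches of YTHDF2 and YTHDC1 that lay inside a peak at every stage are shown first because the peak results turn on them. The sequences were read from the RefSeq genome Sscrofa11.1 with positions from the deposited peak lists, as DNA letters of the coding strand, 5′ to 3′. Capitals mark DRACH, the usual context of m6A: A, G or T, then A or G, then A, then C, then A, C or T. Where matches overlap, the capitals run together. GGACT is 1 form of DRACH, so a GGACT is counted in both. YTHDF2 had 1 such stretch, of 211 bases, at chr6:85723429-85723639 on the plus strand, in its longest coding exon (bases 1844 to 2054 of 2193 coding bases).
YTHDF2: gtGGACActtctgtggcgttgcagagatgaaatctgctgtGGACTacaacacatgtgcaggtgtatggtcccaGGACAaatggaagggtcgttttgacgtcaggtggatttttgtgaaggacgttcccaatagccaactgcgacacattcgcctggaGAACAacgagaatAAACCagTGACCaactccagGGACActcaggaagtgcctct
It holds 7 DRACH matches, 1 of them GGACT, and 1 DRACH on the opposite strand. Of 150721 windows of 211 bases cut end to end from the coding sequences of all RefSeq coding genes, 12.0% hold at least 7 DRACH, 96.9% hold at least 1, and 20.1% hold GGACT (16.9% on the opposite strand).

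The stretch of YTHDF1, a paralog of YTHDF2, that lay in peaks at E33, E60 and E70, the stages with a YTHDF1 peak, is shown next. It is not the part of YTHDF1 that aligns with the YTHDF2 stretch above. It has 180 bases at chr17:62334812-62334991 on the minus strand (coding bases 627 to 806 of 1677).
YTHDF1: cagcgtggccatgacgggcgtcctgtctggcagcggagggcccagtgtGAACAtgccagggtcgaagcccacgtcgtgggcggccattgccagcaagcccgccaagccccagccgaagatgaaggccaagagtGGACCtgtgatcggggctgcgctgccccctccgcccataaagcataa
It holds 2 DRACH matches and 1 on the opposite strand. Among windows of 180 coding bases, 83.2% hold at least as many, 95.3% hold a DRACH and 17.3% a GGACT.

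YTHDC1 had the most bases inside a peak at every stage. One stretch of 299 bases lies early in the coding sequence, at chr8:66098810-66099108 on the plus strand (coding bases 506 to 804 of 2223), and is rich in purines (80.9% A or G).
YTHDC1 early coding: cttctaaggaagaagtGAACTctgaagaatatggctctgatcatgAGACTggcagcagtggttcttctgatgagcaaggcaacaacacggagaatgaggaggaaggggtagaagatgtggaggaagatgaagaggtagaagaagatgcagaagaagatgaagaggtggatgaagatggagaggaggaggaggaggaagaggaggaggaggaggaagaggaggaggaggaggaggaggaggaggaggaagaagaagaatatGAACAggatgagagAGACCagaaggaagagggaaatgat
It holds 4 DRACH, 1 on the opposite strand, and 78.6% of the windows of its length hold at least as many. The last 225 coding bases, at chr8:66121715-66121939 (coding bases 1999 to 2223), end at the stop codon.
YTHDC1 end of coding: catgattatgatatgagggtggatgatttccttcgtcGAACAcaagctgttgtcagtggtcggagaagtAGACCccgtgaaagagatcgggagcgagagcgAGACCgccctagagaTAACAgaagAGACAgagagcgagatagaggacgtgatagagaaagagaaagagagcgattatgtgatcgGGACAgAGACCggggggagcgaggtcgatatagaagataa
They hold 7 DRACH and 1 on the opposite strand, and 15.0% of windows of 225 bases hold at least 7. A further stretch of 120 bases lies in the 5′ UTR of YTHDC1, and the 21 bases around its GGACT, at chr8:66086802-66086822, are shown here.
YTHDC1 5′ UTR site: caccggacGGACTgacggacg
For HNRNPA2B1, whose peaks were weak, the 21 bases around the DRACH (AGACC) in the 61 bases shared by its peaks at E33, E40, E50 and E70, at chr18:46213299-46213319 on the plus strand, lie outside the RefSeq transcript used here but in another RefSeq exon of the gene.
HNRNPA2B1 site: gtcttgggAGACCtagctgcc
A DRACH match marks letters only and does not locate the methylated base.

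The scale of the expression values needs a word before the levels. One unnamed gene took up between 37.4% and 72.4% of the TPM in each library, so the deposited TPM of every other gene moved with it. Levels are therefore given as scaled TPM, the deposited value divided by a size factor, which is the median ratio of a library to the geometric mean of all libraries over the genes above 0 in all of them. Size factors ran from 0.305 to 2.03. E40 replicate 2 and E50 replicate 3 stood apart: a second unnamed gene reached 17.3% of TPM there and stayed between 0.227% and 1.19% in the other 16 libraries. From E33 to E95 the median gene differed on the log2 scale by 0.0023 with this scaling, -1.02 for TPM as deposited and -0.60 for TPM rescaled without the 2 most abundant genes. Directions are therefore given relative to the median gene. Taking off the median gene removes most of what sets these scalings apart. Agreement of such relative values between them was therefore largely fixed beforehand and is no independent check. Of the genes called in E95 against E33, 50.7% were higher at E95 with this scaling, 5.45% in the deposited TPM and 14.6% without those 2 genes. Sequencing depth is unknown, since TPM keeps none.

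The 7 readers spanned a wide range of levels in the same tissue. HNRNPA2B1 stood at 220.4 ± 20.7 scaled TPM (SD over 18 libraries), above 98.5% of the genes tested. ELAVL1 followed at 13.6 ± 1.13, then YTHDF1 at 11.0 ± 2.20, YTHDC1 at 8.95 ± 1.52, YTHDF2 at 8.88 ± 1.32, YTHDF3 at 7.89 ± 0.901 and YTHDC2 at 2.93 ± 0.578. TPM is a value per transcript length, so these levels can be set against each other. The order was the same in every library at both ends: HNRNPA2B1 exceeded ELAVL1 in 18 of 18 libraries and YTHDF3 exceeded YTHDC2 in 18 of 18. In between it was less fixed. ELAVL1 exceeded YTHDF1 in 16 of 18 libraries, YTHDF1 exceeded YTHDC1 in 13, YTHDC1 exceeded YTHDF2 in 11, and YTHDF2 exceeded YTHDF3 in 13, and the neighbours from YTHDF1 down to YTHDF3 differed by less than the SD of the higher gene of each pair.

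**Figure D1:**
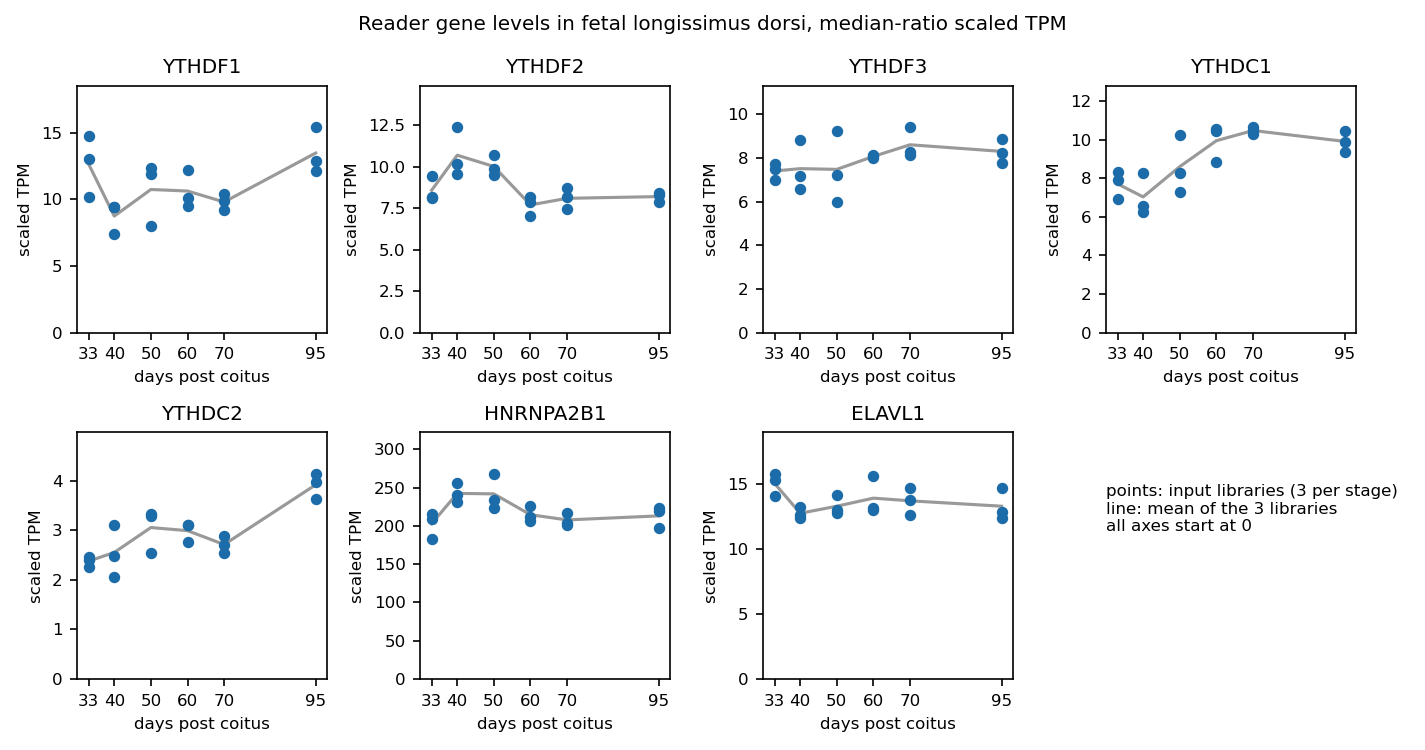
Scaled TPM (y, linear, from 0) of the 7 reader genes against days post coitus (x) in the 18 muscle input libraries. Points are single libraries, 3 per stage, and the line joins the stage means. YTHDC2 is highest at E95, where its 3 libraries (3.64 to 4.14) lie above all others, and YTHDC1 lies higher from E60 on than at E33 and E40. In the deposited TPM both genes are instead lower at E95 than at E33.

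Across the 6 stages, YTHDC1 and YTHDC2 were higher late, and YTHDF2 was higher at E40 and E50 than from E60 on, each relative to the median gene. The range of stage means had a median of 0.42 on the log2 scale over the 7 readers and 0.67 over all 13334 genes tested, and the readers' ranges lay at percentiles 3.02 to 41.6 of all genes. Differences were tested with limma on log2(scaled TPM + 1), which understates the change of low genes, and a gene was called where its p, adjusted by Benjamini-Hochberg over the 13334 genes, was under 0.05. Across stages 3 of the 7 readers passed the F test (YTHDF2, YTHDC1 and YTHDC2), against 47.3% of all genes tested. For a linear trend with day, 2 of 7 passed (YTHDC1 and YTHDC2, both higher with day), against 42.3% of all genes and 21.8% in that direction. These shares are close to the background or below it. In the deposited TPM, 0 of 7 passed either test, against 20.1% and 22.0% of all genes, and the slopes of YTHDC1 and YTHDC2 turned negative. These are whole-muscle samples, in which fewer cells of a type and less RNA per cell cannot be told apart. Where libraries of some stages are said below to lie apart from those of others, this is a description. The share of all genes that separate in the same way was not counted.

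YTHDF2, a cytoplasmic reader known for mRNA decay, had its highest stage means at E40 and E50. Its 3 libraries held 9.42, 8.14 and 8.19 scaled TPM at E33, 10.2, 9.54 and 12.4 at E40, and 9.85, 10.7 and 9.48 at E50. They held 8.17, 7.88 and 7.05 at E60, 8.70, 7.44 and 8.15 at E70, and 7.90, 8.28 and 8.43 at E95. All libraries of E40 and E50 lay above all those of E60, E70 and E95. The F test gave 6.03 (adjusted p = 0.0104), while no single comparison of consecutive stages passed. The log2 difference was 0.28 for E40 against E33 (SE 0.0968, adjusted p = 0.0519) and -0.34 for E60 against E50 (SE 0.0968, adjusted p = 0.137). Both differences kept their sign relative to the median gene under all 4 scalings, which is a weak check for the reason given above. In the deposited TPM the F test did not pass (adjusted p = 0.316).

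YTHDF1, known for promoting translation of methylated mRNAs, had its lowest stage mean at E40, where that of YTHDF2 was highest. Its libraries held 14.8, 10.2 and 13.0 scaled TPM at E33 and 7.36, 9.42 and 9.44 at E40, with no overlap. They held 11.9, 8.02 and 12.3 at E50, 9.51, 12.2 and 10.1 at E60, 10.4, 9.18 and 9.85 at E70, and 12.8, 15.4 and 12.1 at E95. The 3 libraries of E95 were above all those of E70. Neither step passed after adjustment: the log2 difference was -0.48 for E40 against E33 (SE 0.165, adjusted p = 0.0528) and 0.42 for E95 against E70 (SE 0.165, adjusted p = 0.114). YTHDF1 did not pass the F test either (F = 3.25, adjusted p = 0.0718), and it did pass without E33 replicate 2 (adjusted p = 0.037) or without E50 replicate 2 (adjusted p = 0.025).

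YTHDF3, the third cytoplasmic YTH protein, had the narrowest range of the 7. Its stage means ran from 7.40 scaled TPM at E33 to 8.60 at E70, a range of 0.20 on the log2 scale, which lies at percentile 3.02 of all genes tested. The F test gave 0.936 (adjusted p = 0.555). The log2 difference of E95 against E33 was 0.15, with a 95% confidence interval from -0.12 to 0.41.

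The nuclear reader YTHDC1 was higher late than early. Its libraries held 6.92, 8.33 and 7.89 scaled TPM at E33, 6.23, 8.29 and 6.58 at E40, and 7.27, 8.28 and 10.3 at E50. They held 8.83, 10.5 and 10.6 at E60, 10.5, 10.3 and 10.7 at E70, and 9.90, 9.38 and 10.5 at E95. All 9 libraries from E60 on lay above the 6 of E33 and E40. The F test gave 6.11 (adjusted p = 0.00994), and the slope was 0.074 log2 units per 10 days (SE 0.0204, adjusted p = 0.00693). For E95 against E33 the log2 difference was 0.33 (SE 0.12, adjusted p = 0.0367). Relative to the median gene it was 0.32 with this scaling, 0.20 in the deposited TPM, 0.30 without the 2 most abundant genes and 0.28 after quantile normalization. The test was on the difference itself, which passed with the first scaling alone. In the deposited TPM and without the 2 most abundant genes the difference itself was negative. The call of E95 against E33 was also lost without E33 replicate 1 (adjusted p = 0.138), E33 replicate 3 (0.0648), E95 replicate 1 (0.0752) or E95 replicate 3 (0.102).

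YTHDC2 was the least abundant reader and had the largest difference between the first and the last stage. Its libraries held 2.41, 2.46 and 2.27 scaled TPM at E33, 2.49, 2.06 and 3.11 at E40, and 3.33, 3.28 and 2.55 at E50. They held 3.11, 3.10 and 2.76 at E60, 2.70, 2.89 and 2.55 at E70, and 3.64, 3.97 and 4.14 at E95. The 3 libraries of E95 exceeded the other 15. The log2 difference of E95 against E33 was 0.54 (SE 0.106, adjusted p = 0.000726), and that of E95 against E70 was 0.40 (SE 0.106, adjusted p = 0.0199). Relative to the median gene, E95 against E33 was 0.54 with this scaling, 0.59 in the deposited TPM, 0.64 without the 2 most abundant genes and 0.555 after quantile normalization. It was not called in the deposited TPM, where the difference itself was -0.43 (adjusted p = 0.374), or without the 2 most abundant genes, where it was 0.039 (adjusted p = 0.877). The difference of E95 against E33 passed without any 1 of the 18 libraries. That of E95 against E70 did not pass without E70 replicate 1 (adjusted p = 0.0563), E70 replicate 3 (0.0744), E95 replicate 2 (0.0614) or E95 replicate 3 (0.0578).

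HNRNPA2B1 and ELAVL1, the readers without a YTH domain, did not pass the F test (adjusted p = 0.132 and 0.365). HNRNPA2B1 held 209.6, 216 and 183 scaled TPM in the E33 libraries and 256, 231 and 240.4 in those of E40, with no overlap. The difference was 0.26 on the log2 scale (SE 0.0988, adjusted p = 0.0785). ELAVL1 differed in the other direction, with 15.8, 15.2 and 14.0 at E33 and 13.2, 12.4 and 12.6 at E40, again with no overlap and a log2 difference of -0.22 (SE 0.091, adjusted p = 0.0986). Neither difference passed, and the share of all genes without overlap between E33 and E40 was not counted. From E50 to E95 the libraries of HNRNPA2B1 ran from 197 to 268 and those of ELAVL1 from 12.3 to 15.6. For E95 against E33 the log2 difference of ELAVL1 was -0.17, with a 95% confidence interval from -0.36 to 0.026, and it was negative relative to the median gene under all 4 scalings. ELAVL1 passed this comparison in the deposited TPM (adjusted p = 0.021), without the 2 most abundant genes (2.06e-05) and after quantile normalization (0.0473). These tests were on the difference itself and not relative to the median gene. The median gene stood at -1.02, -0.60 and -0.023 there, and 5.45%, 14.6% and 46.4% of calls were higher at E95. The first 2 of these p-values therefore do not show a fall of ELAVL1 beyond that of the median gene. The log2 difference of HNRNPA2B1 for E95 against E33 was 0.072, with an interval from -0.14 to 0.28. It turned negative after quantile normalization (-0.29) and in the deposited TPM (-1.20).

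By comparison of stages, the readers called were few. For E40 against E33, 0 of 7 passed in limma, while 20.9% of all genes were called. An unadjusted p under 0.05 was found for 4 readers (YTHDF1 and ELAVL1 lower, YTHDF2 and HNRNPA2B1 higher at E40). The share of all genes with an unadjusted p under 0.05 was not taken in any comparison, so these 4 have no background. Some readers were close to the adjusted threshold: 1 passed without E33 replicate 1, E33 replicate 2, E40 replicate 2 or E50 replicate 3, and 2 passed without E50 replicate 2. For E50 against E40, 0 of 7 passed and 0 had an unadjusted p under 0.05 (1.52% of all genes called). For E60 against E50 these counts were 0 and 1 (0.817%), and for E70 against E60 they were 0 and 0 (1.73%). For E95 against E70, 1 of 7 passed (13.6% of all genes, 6.84% as higher at E95), and in the deposited TPM 0 did (0.285%). For E95 against E33, 2 of 7 passed, against 46.7% of all genes and 23.7% in the direction of higher at E95. In the deposited TPM, 3 of 7 passed, YTHDF1, YTHDF2 and ELAVL1, all lower at E95, against 48.5% of all genes. The median size of that difference was 0.15 over the readers and 0.44 over all genes tested.

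**Figure D2:**
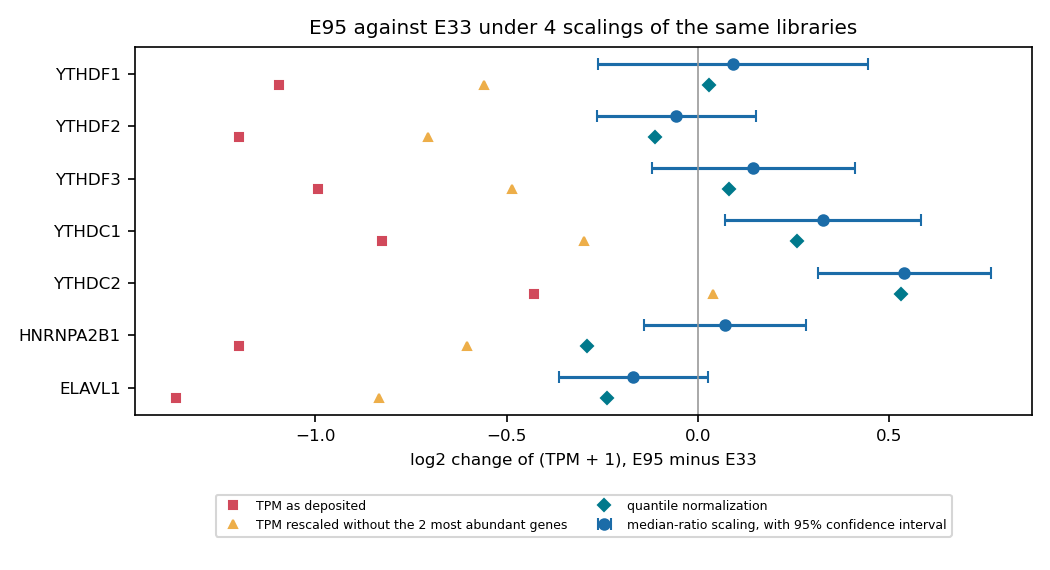
Log2 change of TPM + 1 from E33 to E95 (x) for the 7 readers (y). Circles with bars are the median-ratio scaling with its 95% confidence interval, and the other symbols are the same libraries under 3 other scalings. YTHDC2 lies furthest to the right in each of the 4, at 0.54 with the median-ratio scaling and -0.43 in the deposited TPM, where all 7 readers lie below 0.

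Ratios of 2 genes within a library do not depend on the scaling between libraries. YTHDC2 made up 6.16% ± 0.490 of the summed TPM of the 5 YTH genes at E33 (SD, n = 3) and 8.95% ± 0.627 at E95, and the E95 libraries (8.43% to 9.64%) lay above those of E33 (5.84% to 6.72%). Its log2 ratio to ELAVL1 was -2.66 ± 0.0448 at E33 and -1.76 ± 0.131 at E95, where no library overlapped with any of the other 5 stages. The log2 ratio of YTHDC1 to YTHDF2 was below 0 in all 3 libraries at E40 (-0.91 to -0.20) and above 0 in all 9 libraries from E60 to E95 (0.11 to 0.58). The ratio of YTHDF1 to YTHDF2 was 0.54 ± 0.195 at E33, -0.29 ± 0.240 at E40 and 0.71 ± 0.186 at E95. YTHDF2 had the largest mean share of the 5 at E40 (29.2% ± 2.72) and YTHDC1 at E70 (26.4% ± 0.571). YTHDF1 had the largest at E33 (32.5% ± 4.19), E50 (26.9% ± 5.72), E60 (26.9% ± 2.07) and E95 (30.7% ± 2.99). At E50 and E60 the next genes, YTHDF2 (25.1% ± 1.90) and YTHDC1 (25.3% ± 1.96), lay within the SD. HNRNPA2B1 exceeded ELAVL1 by 3.75 ± 0.0603 log2 units at E33 and by 4.25 ± 0.0292 at E40. These ratios were chosen after their values were seen and are a description.

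**Figure D3:**
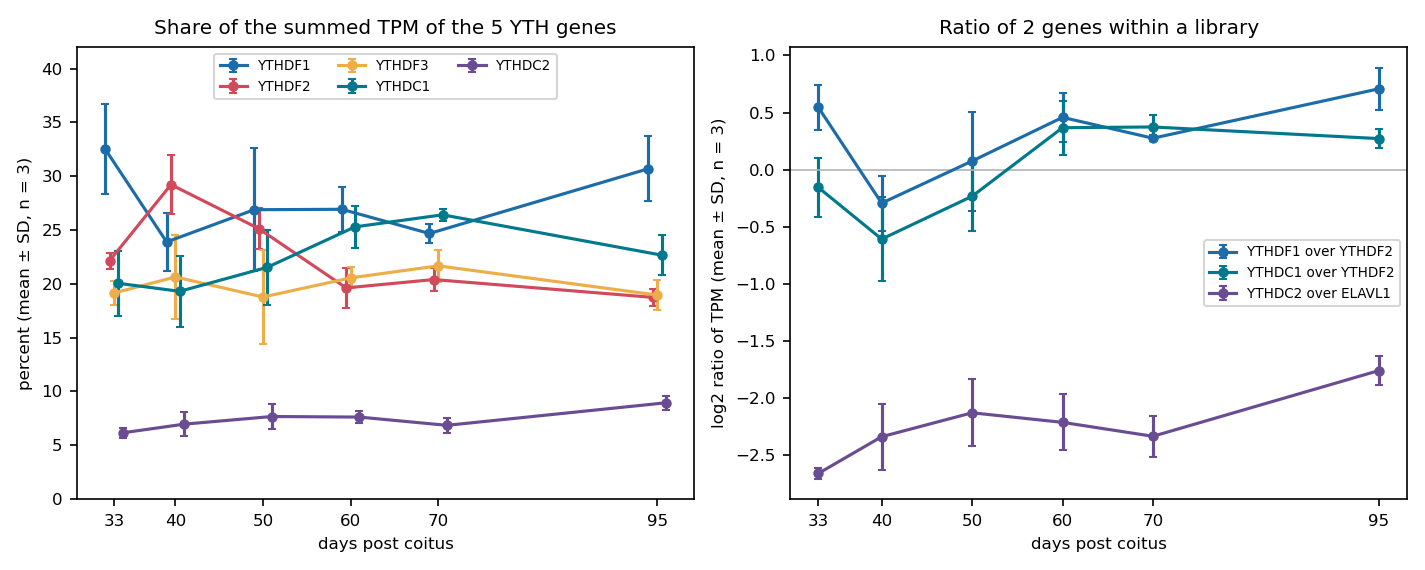
Left, share of each gene in the summed TPM of the 5 YTH genes (percent, y) against days post coitus (x, points offset sideways). Right, log2 ratio of 2 genes within a library (y) against days post coitus. Points are means and bars SD over 3 libraries. YTHDC2 stands at 6.16% of the sum at E33 and 8.95% at E95, and YTHDF2 leads the sum at E40 with 29.2%.

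Other cell types moved with the stages, and their part in the reader levels was not tested. Summed over 5 of 6 neuronal markers looked up, the level was 105 to 135 scaled TPM at E33, 20.7 to 26.2 at E40 and 3.24 to 5.41 at E95. Endothelial markers (4 of 4) went from 16.0 to 20.7 at E33 to 59.0 to 71.3 at E95, and markers of proliferating cells (3 of 4) from 38.0 to 49.4 down to 13.5 to 16.5. Fibroblast markers (5 of 5) held 2232 to 2979 at E33 and 4770 to 7458 at E95, with lower means at E95 for PDGFRA and LUM, immune markers (4 of 4) 29.0 to 36.5 and 37.9 to 60.8, and Schwann cell markers (3 of 3) 10.5 to 13.6 and 14.7 to 71.4. Erythroid markers (5 of 6) held 86.7 to 233 at E33 and 15.5 to 30.9 at E95. The lower sum came from HBZ, an embryonic globin (mean 128 at E33 and 2.07 at E95), and SLC4A1 (1.72 and 0.402), while HBM (13.7 and 17.7), ALAS2 (1.25 and 1.53) and AHSP (1.95 and 3.08) had higher means at E95. AHSP was listed at 0 in all libraries of E70.

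The other genes of the m6A pathway and the partners of the readers are set against the 46.7% of all genes called in E95 against E33. Of 22 writers, erasers and further readers tested, 12 passed in E95 against E33, 5 higher and 7 lower, with a median of -0.058 on the log2 scale, a share of calls near that of all genes. The largest fall was that of IGF2BP1, a fetal mRNA-stabilising reader, by 3.87 (SE 0.148, adjusted p = 1.43e-10), and the largest rise that of FXR1, a muscle-rich relative of FMR1, by 1.19 (SE 0.143, adjusted p = 9.11e-06). Of 13 genes of the CCR4-NOT deadenylase and related decay factors, which YTHDF2 recruits, 7 passed, 3 higher and 4 lower, again near the share of all genes, among them the deadenylase subunits CNOT6L (0.52, adjusted p = 0.0237) and CNOT6 (-0.34, adjusted p = 0.0277). Of 4 splicing and export partners of YTHDC1, 2 passed, 1 in each direction, which is also near that share, and the splicing factor SRSF7 fell by 0.41 (adjusted p = 0.000956). All 3 tested relatives of HNRNPA2B1 (HNRNPA1, HNRNPD and HNRNPDL) fell, HNRNPA1 by 0.71 (adjusted p = 0.000212), while HNRNPA2B1 did not pass. Its relatives HNRNPA0, HNRNPA3 and HNRNPAB were not matched to a gene by symbol, so the family is incomplete here. The neuronal relatives ELAVL2, ELAVL3 and ELAVL4 were under the filter of a mean of 1 TPM. Of the 2 microprocessor subunits, which cut primary microRNAs, DROSHA fell by 0.48 (adjusted p = 0.000467) and DGCR8 did not pass. Of 3 tested myogenic mRNAs known as ELAVL1 targets, MYOD1 rose by 0.84 (adjusted p = 0.00161), while MYOG stood at -0.057 (adjusted p = 0.793) and CDKN1A, a cell cycle inhibitor, at 0.57 (adjusted p = 0.0585), and neither passed. These calls and directions were taken with the median-ratio scaling only.

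The genes most like each reader over the 18 libraries, by Pearson's r of log2(scaled TPM + 1) among 10746 named genes, are given as a description. They were TELO2 (0.909) and ZNF768 (0.888) for YTHDF1, SLC35G1 (0.838) and HAS2 (0.831) for YTHDF2, and TRAM1 (0.802) and CMBL (0.799) for YTHDF3. For YTHDC1 they were FGFRL1 (0.879) and PLVAP (0.878), and for YTHDC2 CLK1 (0.889) and MAPRE2 (0.883). For HNRNPA2B1 they were PSMA3 (0.847) and SPATA1 (0.834), and for ELAVL1 HSF2BP (0.805) and IL4I1 (0.791). The libraries of a stage share that stage, and the highest of many correlations is high by selection.

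The reader mRNAs differed in whether they carried m6A peaks. YTHDF2, YTHDF3 and YTHDC1 had a peak in all 6 stage lists, HNRNPA2B1 in 5 (not E60), YTHDF1 in 3, ELAVL1 in 1 (E33) and YTHDC2 in none. Among the genes tested for expression, 18.3% had a peak at all 6 stages and 54.2% at none. Among genes within 2-fold of the level of YTHDF2, YTHDF3 and YTHDC1, 22.1% to 23.4% had a peak at all 6 stages, and 64.8% of those within 2-fold of YTHDC2 had none. Each list is a single list per stage with no replicates, so a peak seen at one stage and not at another has no error estimate. No peak on the exons of the 7 readers was named for another gene.

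YTHDC1 had 3 to 5 peaks per stage. At every stage they lay in the 5′ UTR, the early coding sequence and the end of the coding sequence. At all stages but E50 a further peak, with folds of 2.30 to 3.69, was centred at positions -658 to -598, counted in bases along the transcript from the last base of the stop codon. The highest fold enrichment per list, as the authors' caller gave it, was 5.52, 8.17, 9.64, 7.47, 6.90 and 6.59 from E33 to E95, at percentiles 77.9 to 91.1 of its list. It lay on the early coding stretch at E40 and at the stop codon at the other 5 stages. The 5′ UTR peak was weak at every stage, with folds of 1.95 to 2.89. At the stop codon, YTHDC1 peaks reached 13 to 42 bases into the 3′ UTR.

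YTHDF2 and YTHDF3 carried their peaks along the long coding exon that holds most of each protein's coding sequence. The highest fold of YTHDF2 was 5.35, 4.22, 7.58, 6.30, 6.41 and 5.82 from E33 to E95, and that of YTHDF3 4.40, 3.96, 7.55, 5.23, 8.40 and 4.99. At E40 each was below the median of its list (4.23). In YTHDF2, 43.8% of coding bases lay in a peak of at least 1 stage, with 23.9 DRACH per 1000 bases there and 10.6 in the other coding bases. In YTHDF3 these values were 62.5%, 25.3 and 25.7, and in YTHDC1 57.2%, 22.0 and 15.8. In YTHDF1 they were 26.9%, 17.7 and 14.7. HNRNPA2B1 went the other way, with 22.8%, 16.5 and 25.6. A separate YTHDF2 peak just after the stop codon, in the 3′ UTR, was listed at E33, E70 and E95.

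The 3 YTHDF coding sequences were 66.6% to 69.4% identical in pairs, with no identical run above 19 bases. The always-covered stretch of YTHDF2 is 77.3% identical to YTHDF1 and 78.2% to YTHDF3 at the aligned bases, and peaks of YTHDF1 and YTHDF3 overlapped them at 1 and 3 of the 6 stages. The printed stretch of YTHDF1 is 61.6% identical to YTHDF2 and 64.4% to YTHDF3 at its aligned bases. Peaks of YTHDF2 and YTHDF3 overlapped those bases at 0 and 5 of the 6 stages.

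YTHDF1 peaks were listed at E33 (fold 3.62), E60 (7.34 and 2.72) and E70 (5.78), and at none of E40, E50 and E95. The mean deposited TPM of YTHDF1 was 21.0, 13.6 and 9.93 at the stages with a peak and 9.83, 8.43 and 9.27 at those without. By these means the peaks lay at the 3 stages of highest deposited TPM, but E70 and E40 were close (9.93 and 9.83). E40 replicate 2, a library that stood apart as described above, held 4.45. E40 replicates 1 and 3 held 10.3 and 14.8, above all E70 libraries (9.70 to 10.1), yet E40 had no peak. In scaled TPM the highest mean was 13.5 at E95, which also had no peak. The part of level or read depth in these peaks was not tested. ELAVL1 had its only muscle peak at E33 (fold 3.83), mostly in the 5′ UTR, where its deposited TPM was highest (25.5, against 9.21 to 17.8 at the other stages). YTHDC2 had no peak at a mean deposited TPM of 2.71 to 4.07. HNRNPA2B1, far more abundant at 149 to 346 deposited TPM, had peaks with folds of 1.33 to 1.92, none above the median of its list, near the stop codon or in the late coding sequence, and at E50 outside the RefSeq transcript used. Among the 244 genes within 2-fold of its level, 40.2% had a peak at all 6 stages and 35.2% at none.

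**Figure D4:**
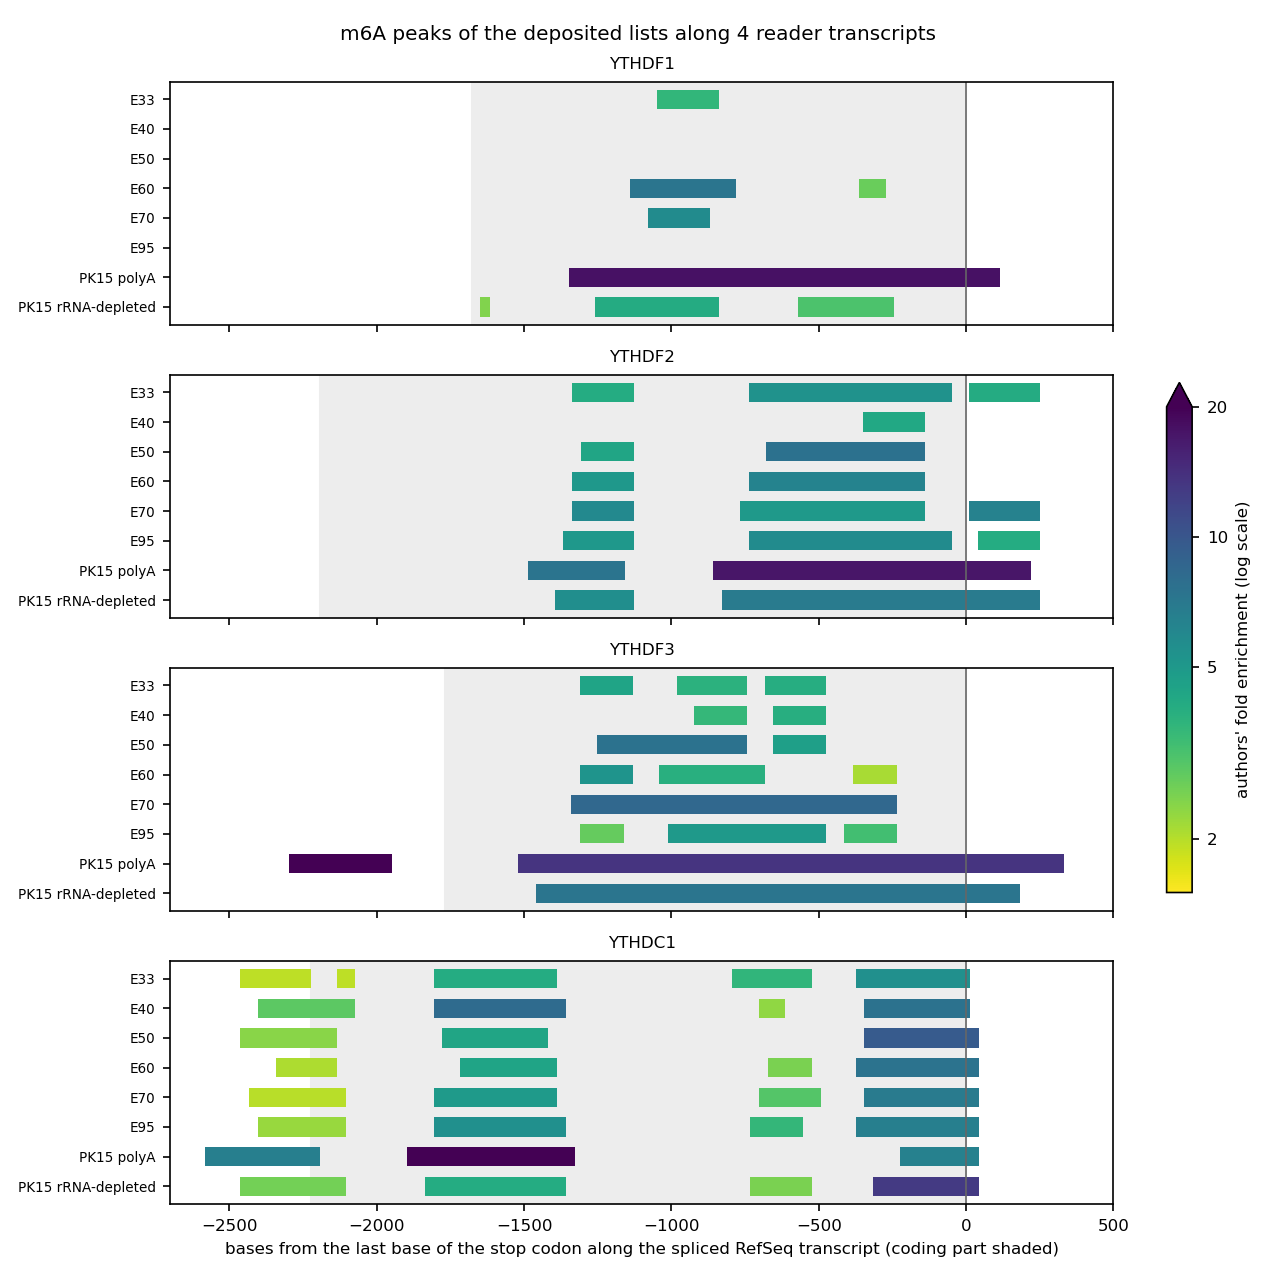
Peaks of the 6 stage lists and the 2 PK15 lists (rows) along the spliced RefSeq transcripts of YTHDF1, YTHDF2, YTHDF3 and YTHDC1, in bases from the last base of the stop codon (x), with the coding part shaded. Colour is the authors' fold enrichment on a log scale that ends at 20. YTHDC1 peaks recur in the 5′ UTR, the early coding sequence and at the stop codon, with a further one between the last 2 at all stages but E50, and YTHDF1 has no bar at E40, E50 and E95.

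From 1 stage to the next, of 52 reader peaks in the first 5 stages, 40 overlapped a peak of the same gene at the following stage by at least 1 base, and the same number did by at least 50% of the shorter peak. Of all 36715 peaks of those lists, 73.4% and 72.4% did, so the share of the readers is near the background. The coding stretches printed for YTHDF1, YTHDF2 and YTHDC1, and the 120 bases in the 5′ UTR of YTHDC1, also lay wholly inside peaks of both PK15 lists. The printed HNRNPA2B1 site lay wholly inside a peak of the rRNA-depleted list only. In PK15 cells the highest folds were 17.8 for YTHDF1, 17.3 for YTHDF2, 24.8 for YTHDF3 and 119 for YTHDC1 in the polyA list, whose median was 7.41. In the rRNA-depleted list, whose median was 3.92, they were 4.09, 6.85, 7.31 and 12.9. The fold of 119 lay on the early, purine-rich stretch of YTHDC1, at percentile 99.5 of that list, and the rRNA-depleted list gave 4.05 there. In all, 5 of the 7 readers had a peak in the polyA list and 6 in the rRNA-depleted list, against 57.1% and 37.1% of the genes tested in muscle. ELAVL1 had a peak in the rRNA-depleted list alone (fold 2.35), and YTHDC2 had none in either list. The preparations differ in RNA selection and the lists have no replicates, so these differences were not tested.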

How the data were processed

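Expression was measured in 18 muscle input libraries and m6A peaks in 8 lists. The deposited expression files hold TPM, named so in the file headers. Each deposited peak carries a ratio to background (fold enrichment) and a score, read as the caller's p-value, per the file headers. Sscrofa11.1, HISAT2 and Trimmomatic are named in the submitters' processing notes. The quantifier, the peak caller and the pooling of replicates are not given in the sources used here. No peak ran past a chromosome end of the RefSeq genome of that build, and 74.6% to 87.0% of block junctions per list fell at introns of its gene models (1 transcript per gene, the longest coding sequence).

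TPM was scaled by median-ratio size factors over 14215 genes above 0 in all libraries. Genes with a mean of at least 1 deposited TPM (13334, of which 10753 have a symbol) were fitted in limma 3.58.1 (R 4.3.3) on log2(scaled TPM + 1), with 1 mean per stage (12 residual degrees of freedom), a trended prior and two-sided tests. Adjusted p-values are Benjamini-Hochberg over all genes tested. The code was tested on simulated data. Peaks were taken by the gene they name, placed with Python 3.11.15, and a duplicate entry was dropped.

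The members, the lists and the alternatives were chosen with earlier results of these data known. Named genes are the members, the 2 genes most correlated with each, and, per pathway list, the largest rise and fall in E95 against E33 among genes past the F test. Scalings, pseudocount, filter, replicate block and left-out libraries were varied. Values per immunoprecipitated library and PK15 expression were not analysed here, and 1 sequence is not reported here.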

Additional observations from a re-analysis of the deposited data

How the results depend on the processing

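The scaling between libraries moved the results most. With TPM as deposited, 0 readers passed across stages, 0 for the trend and 0 in E95 against E70. Without the 2 most abundant genes these counts were 5, 4 and 0, with 1 in E40 against E33 and 5 in E95 against E33. The shares of all genes across stages and for the trend are not given for this scaling. The 5 and 4 are therefore no result about the readers. That scaling called 2567 of all 13334 genes in E40 against E33, 2443 in E95 against E70 and 8112 in E95 against E33. Of the latter, 14.6% were higher at E95, and the median gene stood at -0.60. The 5 readers called there can therefore not be set apart from the shift of all genes. Quantile normalization gave 1 in E40 against E33, where it called 2910 of all genes. For the settings that follow, here and in the paragraphs below, shares of all genes are not given. Those counts show only how the calls of the readers moved and are no result about the readers against other genes. A minimum mean of 5 TPM, which leaves out YTHDC2, gave 1 for the trend, 2 in E40 against E33, 0 in E95 against E70 and 1 in E95 against E33. Leaving out E40 replicate 2 and E50 replicate 3 together gave 1 in E40 against E33. With peaks above the median fold of their list only, 1 reader had a peak at all stages in place of 3.

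Signs turned as follows. In the deposited TPM the slope per 10 days was -0.089 for YTHDF1, -0.093 for YTHDF3, -0.048 for YTHDC1 and -0.035 for YTHDC2, and without the 2 most abundant genes it was -0.060, -0.065, -0.019 and -0.0029. In the deposited TPM, E95 against E33 was -1.10 for YTHDF1, -0.99 for YTHDF3, -0.82 for YTHDC1, -0.43 for YTHDC2 and -1.20 for HNRNPA2B1. Without the 2 most abundant genes it was -0.56 for YTHDF1, -0.49 for YTHDF3, -0.30 for YTHDC1 and -0.60 for HNRNPA2B1, which also turned to -0.29 after quantile normalization. In the deposited TPM, E40 against E33 was -0.36 for YTHDF2 and -0.46 for HNRNPA2B1, E60 against E50 was 0.36 for YTHDF2, and E95 against E70 was -0.096 for YTHDF1 and -0.017 for YTHDC2. In E95 against E33 the median gene itself stood at -1.02 in the deposited TPM, -0.60 without the 2 most abundant genes and -0.023 after quantile normalization. Relative to it, YTHDF1 (-0.076) and HNRNPA2B1 (-0.18) were still negative in the deposited TPM, and HNRNPA2B1 after quantile normalization (-0.27). The cause of these turned signs was not tested.

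Leaving out 1 library at a time gave 3 to 4 readers across stages, 2 to 2 for the trend, 0 to 2 in E40 against E33, 0 to 1 in E95 against E70, 1 to 2 in E95 against E33 and 0 to 0 in the other comparisons. Small differences of E95 against E33 changed sign: that of YTHDF1 ranged from -0.045 to 0.21 and that of YTHDF2 from -0.089 to 0.0059. A pseudocount of 0.1, no filter and fits of only the 2 stages compared kept every count of readers called within 1.5 times.

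Same-numbered samples of different stages did not deviate together: over 45 pairs the correlation ran from -0.12 to 0.10, and 8 of 18 libraries correlated best with their own number. With the replicate block, 3 readers passed across stages, 2 for the trend, 1 in E95 against E70, 2 in E95 against E33 and 0 in the other comparisons, the same counts as without it. Unknown depth and 3 libraries per stage limit the precision of all levels.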
